A study of Caenorhabditis elegans with 3 samples.

Results

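The genes described are the ribosomal protein genes of the nematode *Caenorhabditis elegans*, taken as the protein-coding genes whose symbols start with rpl- or rps- in the RefSeq annotation of the genome assembly WBcel235. They were 78 of 19971 nuclear protein-coding genes, with 48 rpl- genes for the large (60S) subunit and 30 rps- genes for the small (40S) subunit. Symbols starting with rla-, which were also searched, belonged to 0 genes in that annotation. The occupancy of their promoters by RPC-1, which is the largest of the subunits that form RNA polymerase III (Pol III), was read from ChIP-seq peak lists. Peaks were called on whole young adult hermaphrodites of strain YL517, a transgenic line that stably expresses RPC-1 with a GFP and FLAG tag at its C terminus, and the immunoprecipitation used an antibody against GFP. The 3 biological replicates formed 1 group, so ribosomal protein genes were compared with the other genes of the same animals and not between conditions. All cells of the animal were pooled, so a summit cannot be placed in a tissue, and the expression of the tagged protein beside any untagged RPC-1 was not measured in these lists.

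Ribosomal proteins assemble with ribosomal RNA into the ribosome, and their genes are transcribed by RNA polymerase II, whereas Pol III makes tRNA, 5S rRNA and some further short RNAs. Cells need ribosomal proteins in near-equal amounts and in large quantity, and in *C. elegans* most mRNAs, those of ribosomal proteins included, receive a spliced leader at their 5′ end. The annotated start of such a gene is the 5′ end of the gene model, which can lie downstream of the place where transcription begins. It is called the TSS below. A summit is the position of the maximum of a peak, and a gene was counted as having a summit when one lay within 500 bp of any of its annotated TSS.

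RefSeq gave a ribosomal protein, or a ribosomal domain in the case of rps-10, as the product of all members except rpl-42 and rps-27A. The product of rpl-42 was a NAM-associated domain-containing protein, which goes against its symbol, and that of rps-27A was ubiquitin-like protein 1, the name of a gene in which a ubiquitin-like protein is fused to a ribosomal protein. The Ensembl annotation of the same assembly gave 17 of the 78 genes another symbol, among them rpl-20 for rpl-18A, rps-1 for rps-3A and rpl-37 for rpl-37.2. The genes lay on chromosomes I (23 genes), II (11), III (18), IV (17), V (7) and X (2), and 74 of them had 1 annotated TSS. A same-strand gene ended within 500 bp upstream at 7 ribosomal protein genes (8.97%), which is how downstream genes of an operon lie, against 18.0% of all protein-coding genes.

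The lists of replicates 1, 2 and 3 held 24182, 24563 and 30000 peaks, the list called on the pooled replicates held 30000, and the reproducible list held 1914. The last is the set that the authors kept by the irreproducible discovery rate, a measure of how well peak ranks hold between replicates. The replicate and pooled lists were deposited as input for that step and include weak peaks and background. The signal of a peak is the authors' own value and is comparable only within a list, so genes were compared by rank (1 is the strongest peak) or by percentile rank (100 is the strongest). Read numbers are not part of the lists, so the depth behind a summit is unknown.

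The sequences around the 4 ribosomal protein gene summits of the reproducible list come first, since these are the only such promoters that passed the authors' threshold. Each line gives 151 bases centred on the summit of the pooled list, read 5′ to 3′ on the strand of the gene from the WBcel235 genome (ce11). The windows are chrIII:3867495-3867645 on the plus strand, chrIII:7854622-7854772 on the plus strand, chrIV:654850-655000 on the minus strand and chrIV:4749995-4750145 on the minus strand. Capitals mark, on either strand, 8 short words that were more frequent around ribosomal protein gene summits than around other promoter summits, described further on.
rpl-3: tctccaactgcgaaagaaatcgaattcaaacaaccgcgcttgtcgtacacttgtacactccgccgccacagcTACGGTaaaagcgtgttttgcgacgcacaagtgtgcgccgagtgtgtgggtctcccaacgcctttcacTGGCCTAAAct
rpl-35: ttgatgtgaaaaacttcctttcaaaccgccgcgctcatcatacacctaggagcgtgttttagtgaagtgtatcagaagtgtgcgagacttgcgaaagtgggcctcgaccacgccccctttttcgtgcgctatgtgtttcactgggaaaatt
rpl-15: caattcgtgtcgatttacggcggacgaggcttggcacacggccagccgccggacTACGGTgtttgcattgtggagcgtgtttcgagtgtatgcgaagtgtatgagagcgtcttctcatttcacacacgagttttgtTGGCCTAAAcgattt
rpl-18A: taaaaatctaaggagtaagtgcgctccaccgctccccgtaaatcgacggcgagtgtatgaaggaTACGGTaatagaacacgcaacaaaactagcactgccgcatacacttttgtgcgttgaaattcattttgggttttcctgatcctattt

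Further windows show some of the same words at promoters that reached the strongest 1914 peaks of the pooled list but not the reproducible list. That depth held 12 ribosomal protein genes, 4 of them with a reproducible summit. The windows are examples from the rest, picked by no stated rule, and do not show how common the words are there. The window of rps-15A, not printed, holds only CCTAAA. The printed windows are chrII:5055314-5055464, chrIV:1659190-1659340 and chrIII:4475592-4475742, all on the plus strand.
rpl-22: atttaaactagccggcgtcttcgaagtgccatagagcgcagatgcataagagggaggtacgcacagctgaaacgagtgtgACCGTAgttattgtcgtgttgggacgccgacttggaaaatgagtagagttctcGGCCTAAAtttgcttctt
rps-28: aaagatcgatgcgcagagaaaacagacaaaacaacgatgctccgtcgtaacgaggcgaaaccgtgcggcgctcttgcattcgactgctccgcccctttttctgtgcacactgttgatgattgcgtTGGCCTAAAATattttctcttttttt
rps-3A: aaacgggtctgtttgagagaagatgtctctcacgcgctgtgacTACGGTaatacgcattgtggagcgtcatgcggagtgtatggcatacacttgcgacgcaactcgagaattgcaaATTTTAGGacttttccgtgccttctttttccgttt

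The first question was which ribosomal protein promoters were among the reproducible peaks. A reproducible summit lay within 500 bp of a TSS at 4 of 78 ribosomal protein genes, or 5.13% (exact binomial 95% interval 1.41 to 12.6%), against 1.35% of all protein-coding genes and 266 of the others (1.34%). All 4 genes encode large-subunit proteins, and all 4 summits lay upstream of the TSS and near the weak end of the list. The gene rpl-35 (III, 7855134 to 7855646, plus strand), which encodes uL29, a protein at the exit of the peptide tunnel, had signal 117 at rank 1662, with the summit 406 bp upstream of the TSS. At rpl-3 (III, 3867854 to 3869587, plus strand), which encodes uL3, a core protein near the peptidyl transferase centre, the signal was 117 at rank 1664 and the summit lay 254 bp upstream. The gene rpl-18A (IV, 4749167 to 4749778, minus strand), which encodes eL20, had signal 92.7 at rank 1801 and a summit 261 bp upstream. At rpl-15 (IV, 653480 to 654576, minus strand), which encodes eL15, the signal was 81.4 at rank 1871, 345 bp upstream. The weakest peak of the list had signal 76.7 and the median peak 454. The median percentile rank was 9.51 at the 4 ribosomal protein genes and 54.5 at the 266 other genes with a reproducible summit. By overlap of a peak with 250 bp either side of a TSS, in place of the summit rule, 3 ribosomal protein genes (3.85%) were counted, rpl-35 being the one left out, against 1.57% of all genes. The nearest reproducible summits beyond the limit lay 924 bp downstream of the TSS of rps-13, with signal 80.0, and 965 bp downstream of that of rpl-11.1, with signal 94.5. Matching on interval and summit found 0 of the 1914 reproducible peaks among those of the 4 other lists. The call behind this list is therefore not known, and the same counts follow for the other lists.

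Far more ribosomal protein promoters had a summit in the longer lists. In the pooled list 73 of 78 (93.6%, exact 95% interval 85.7 to 97.9%) had one, against 33.8% of all protein-coding genes. The replicates gave 73 of 78 (93.6%) in replicate 1, 70 (89.7%) in replicate 2 and 68 (87.2%) in replicate 3, against 31.5%, 30.8% and 34.7% of all genes. The mean was 90.2% ± 3.23 for ribosomal protein genes and 32.1% ± 2.09 for the other genes (SD, n = 3 replicates). The share was higher at ribosomal protein genes in 3 of 3 replicates, by 58.1 ± 4.91 percentage points. The difference is larger than the spread between replicates, and the two-sided exact sign-flip test over 3 replicates gave p = 0.25, the smallest value it can give. A summit was present in all 3 replicates at 64 ribosomal protein genes (82.1%) and at 16.7% of the others, and in none at 4 (5.13%) and 50.3%.

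The depth in the list at which ribosomal protein promoters appear was then measured by keeping only the strongest peaks. Among the strongest 500 and the strongest 1000 peaks, 0 of 78 ribosomal protein genes had a summit in any of the 5 lists, which for a single list allows a share of up to 4.62% (exact 95% upper bound), while 0.451% ± 0.0177 and 0.759% ± 0.0201 of the other genes had one in the replicates. Among the strongest 1914 peaks the pooled list gave 12 ribosomal protein genes (15.4%), against 1.67% of all genes. Replicates 1, 2 and 3 gave 9, 8 and 11, against 1.51%, 1.5% and 1.79% of all genes. The mean share was 12.0% ± 1.96 for ribosomal protein genes and 1.56% ± 0.158 for the others. At 5000 peaks it was 70.9% ± 5.78 and 9.98% ± 0.591, and at 10000 peaks 86.3% ± 1.96 and 17.7% ± 0.553. Most ribosomal protein promoters therefore entered between rank 1914 and rank 5000 of each replicate list, and the share changed little below rank 10000.

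**Figure D1:**
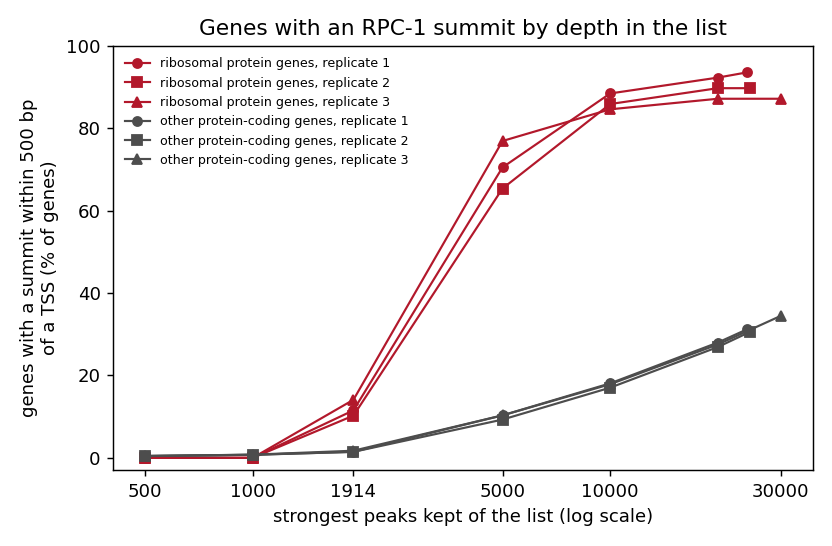
Share of genes with a summit within 500 bp of a TSS (y axis, % of genes) against the number of strongest peaks kept (x axis, log scale), for ribosomal protein genes (red) and other protein-coding genes (grey), with 1 line per replicate. The red lines are at 0 up to 1000 peaks and lie between 65.4% and 76.9% at 5000 peaks, where the grey lines lie between 9.30% and 10.3%.

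Many of the peaks that ranked above every ribosomal protein promoter lay near small RNA genes. Counted as small RNA genes were the Pol III genes named below and genes annotated as snoRNA, snRNA, rRNA, miRNA or tRNA pseudogene. All other non-coding genes were left out. The first ribosomal protein gene of the pooled list was rpl-15 at rank 1221. Of the 1209 nuclear peaks above it, 742 (61.4%) lay within 200 bp of an annotated small RNA gene and 609 (50.4%) within 200 bp of a tRNA, 5S rRNA, signal recognition particle RNA, RNase P, RNase MRP or Y RNA gene, counted here as Pol III genes. The first ribosomal protein gene was rpl-3 at rank 1350 in replicate 1, rpl-3 at rank 1325 in replicate 2 and rpl-15 at rank 1120 in replicate 3, and 59.2%, 62.4% and 65.4% of the nuclear peaks above them were that close to a small RNA gene. In the reproducible list it was 757 of the 1661 peaks (45.6%) above rpl-35. In the pooled list 178 other protein-coding genes had a summit above rpl-15, and at 120 of these (67.4%) the summit was within 200 bp of a small RNA gene.

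No ribosomal protein summit lay within 200 bp of a gene counted here as a Pol III gene in any of the 5 lists. The closest in the pooled list was 1907 bp away and the median distance was 127353 bp. Other small RNA genes were within 200 bp at 4 of the 73 pooled summits, namely those of rpl-6, rps-12, rps-26 and rps-29, and at 3, 4 and 2 summits in replicates 1, 2 and 3. That class held all snRNA genes, also those made by Pol III. Shares for the summits of other protein-coding genes in the whole lists are not given here. Among the strongest 1914 peaks, summits more than 200 bp from every small RNA gene of the classes counted here were then taken. Such a summit was found at 12.0% ± 1.96 of ribosomal protein genes and 0.833% ± 0.159 of other genes (SD, n = 3). All 9, 8 and 11 ribosomal protein genes counted at that depth in replicates 1, 2 and 3 met this condition, against 151 of 292, 144 of 291 and 202 of 346 other genes.

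Ribosomal protein summits also ranked higher than those of other genes that had a summit. In the replicates the median percentile rank of the nearest summit was 83.7, 80.0 and 89.1 at ribosomal protein genes, against 59.8, 57.3 and 60.7 at the other genes. The means of these medians were 84.3 ± 4.59 and 59.3 ± 1.78, and the difference was 25.0 ± 3.01 percentile points (SD, n = 3), in the same direction in 3 of 3 replicates (two-sided exact sign-flip p = 0.25, the smallest possible). In the pooled list the median signal was 39.99 at 73 ribosomal protein genes and 12.7 at 6684 other genes, and the median percentile rank was 90.0 against 65.3. The 73 pooled signals ran between 5.02 and 233, in a list whose strongest peak had signal 12850. Ranks above the 90th percentile were reached at 32.8% ± 12.1 of the ribosomal protein genes with a summit and at 8.80% ± 3.03 of the others. Only genes with a summit enter these medians, and the rule for counting a summit is the same for both groups.

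**Figure D2:**
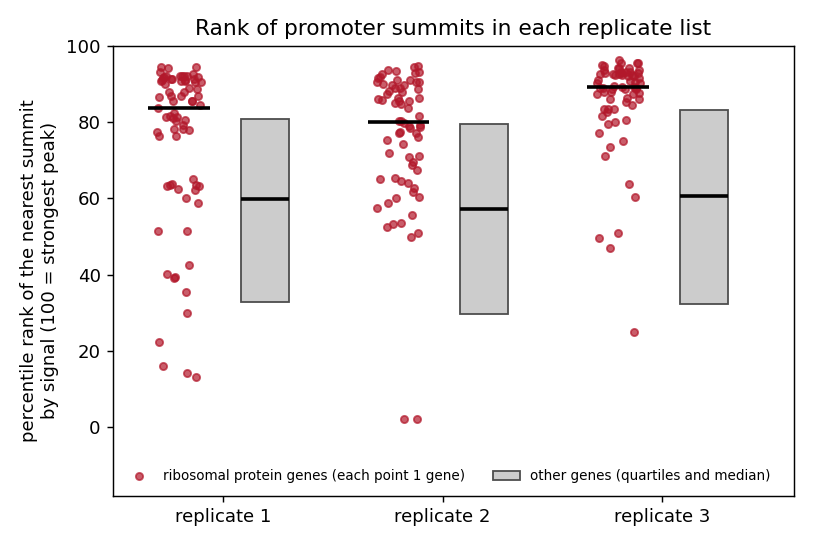
Percentile rank by signal of the nearest summit within 500 bp of a TSS (y axis, 100 is the strongest peak of the list) in each replicate, with 1 red point per ribosomal protein gene and a grey box for the quartiles of the other genes; black bars are medians. The medians of ribosomal protein genes are 83.7, 80.0 and 89.1, above those of the other genes in each replicate.

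In each replicate rpl-3, rpl-35 and rpl-15 were among the 4 highest ranked ribosomal protein genes. The gene rpl-3 had ranks 1350, 1325 and 1335 in replicates 1, 2 and 3, with signals 61.1, 59.7 and 85.3, and a mean percentile rank of 94.9 ± 0.607 (SD, n = 3). The gene rpl-35 had ranks 1356, 1378 and 1339 and a mean percentile rank of 94.8 ± 0.661, and rpl-15 had ranks 1410, 1633 and 1120 and a mean of 94.6 ± 1.50. The ranks of rpl-18A were 1628, 1556 and 1907, with a mean percentile rank of 93.5 ± 0.223. In replicate 3 it stood behind rps-3A at rank 1381, rpl-14 at 1500, rpl-38 at 1607 and rps-28 at 1712, among others. The genes rpl-3, rpl-35, rpl-15 and rpl-18A were the 4 whose nearest summit was among the strongest 1914 peaks of all 3 replicates, and they are also the 4 with a reproducible summit. The reproducible list was made from the same 3 replicates and set the depth of 1914, so this match is not independent evidence. The next in order were rps-3A, which encodes eS1, with 93.0 ± 2.12, and rps-20, which encodes uS10, with 92.9 ± 1.35. They were followed by rpl-21 (eL21) with 92.0 ± 0.875, rps-19 (eS19) with 91.8 ± 1.61, rpl-23 (uL14) with 91.4 ± 1.36 and rps-4 (eS4) with 90.9 ± 0.879. Neighbours in this order differed by less than the spread between replicates. Within each replicate rpl-3 ranked ahead of rpl-35, but in the reproducible list it stood behind, at rank 1664 against 1662. The place of rpl-15 beside these genes changed between replicates. The SDs of the mean percentile ranks also hold the difference in list length. The same rank gives a higher percentile rank in the longer list of replicate 3. The small SD of rpl-18A thus does not mean that its ranks varied less than those of rpl-3. When the strongest summit within 500 bp was taken in place of the nearest, rpl-38, which encodes eL38, also reached the strongest 1914 peaks in every replicate, at ranks 1648, 1799 and 1607.

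**Figure D3:**
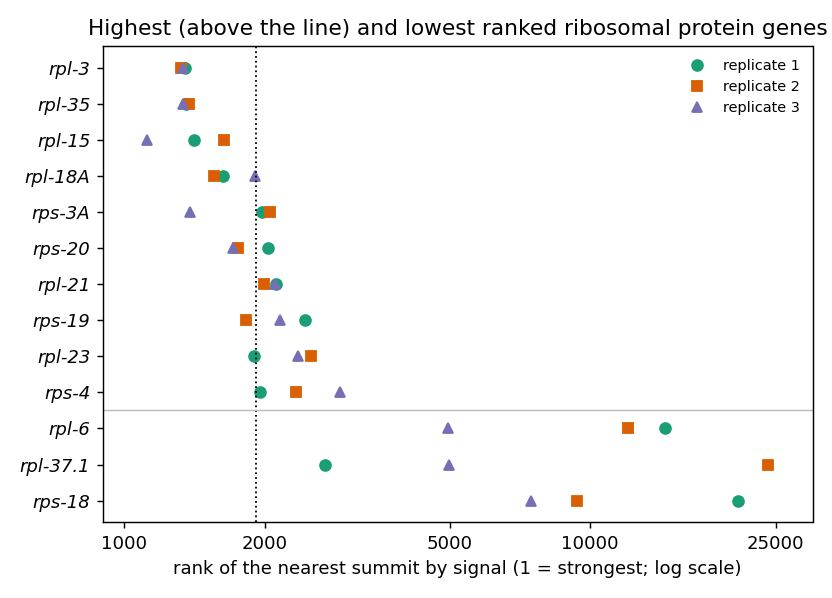
Rank by signal (x axis, log scale, 1 is the strongest) of the nearest summit of the 10 ribosomal protein genes with the highest mean percentile rank (above the line) and the 3 with the lowest (below it), among genes with a summit in all 3 replicates. Each symbol is 1 replicate and the dotted line marks rank 1914; rpl-3, rpl-35, rpl-15 and rpl-18A lie left of it in every replicate, and the lowest 3 spread widely.

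The genes with the lowest mean ranks varied widely between replicates. Among the 64 genes with a summit in all 3 lists, rps-18, which encodes uS13, had the lowest mean percentile rank, 50.4 ± 32.0. Its ranks were 20735, 9389 and 7454. In each replicate it was low, at percentile ranks 14.3, 61.8 and 75.2. The first quartiles of ribosomal protein genes were 63.4, 65.9 and 83.5. The nearest summit of rpl-37.1, which encodes eL37, was at rank 2691 in replicate 1 and 4987 in replicate 3, both about 400 bp upstream. In replicate 2 a weak summit 3 bp downstream of its TSS, at rank 24065, was the nearest instead, and the mean of 58.1 ± 48.6 rests on it. By the strongest summit the mean of rpl-37.1 was 81.4 ± 8.63. For rpl-6 (eL6) the nearest summits gave 58.2 ± 22.5 and the strongest 83.5 ± 4.85, and a small RNA gene, R151.11, lay 19 bp from its pooled summit. Across the 64 genes, Spearman's rho between replicates of the percentile rank of the nearest summit was 0.242, 0.281 and 0.461, and of the strongest summit 0.435, 0.460 and 0.490. Beyond the leading genes, the order of ribosomal protein genes was thus held only loosely between the lists, and these values are across genes that share the same libraries.

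The 4 genes with no summit in any replicate were rps-29 (uS14), rpl-37.2 (eL37), rps-27 (eS27) and rpl-23A.1 (uL23). The limit of 500 bp decided the case of rps-27, whose nearest summits lay 557 bp upstream, 611 bp downstream and 605 bp upstream in replicates 1, 2 and 3 and 579 bp upstream in the pooled list, at rank 2444 there. At rps-29 the nearest summit of replicate 3 was 504 bp upstream at rank 1919, and the pooled list had a weak one 285 bp downstream at rank 23751. The summits nearest to rpl-37.2 and rpl-23A.1 lay 5685 bp and 3164 bp away in the pooled list. The pooled list also lacked a summit at rps-2 (uS5) and at rpl-42. Removing rpl-42, whose annotated product is another protein, gave 94.8% for the pooled list.

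Pairs of genes annotated for the same ribosomal protein differed in these lists. For uL5, rpl-11.1 on chromosome V had a summit in all 3 replicates, at percentile ranks 81.4, 79.7 and 87.7, and rpl-11.2 on the X chromosome in replicates 1 and 2, at 80.4 and 62.7. For uL23, rpl-23A.2 on chromosome I had percentile ranks 76.3, 83.8 and 79.5, and rpl-23A.1 on the X chromosome had no summit. The copies of eL37 gave a summit in all 3 replicates at rpl-37.1 and in none at rpl-37.2, and those of eL41 in all 3 at rpl-41.2 and in replicates 1 and 2 at rpl-41.1. Whether reads were shared between copies cannot be seen in peak lists, and their flanking sequences were not compared.

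The subunits did not differ beyond the spread between replicates in the share with a summit, which was 89.6% ± 4.17 for rpl- genes and 91.1% ± 1.92 for rps- genes (SD, n = 3). The median percentile rank was 83.0 ± 5.31 for rpl- genes and 87.1 ± 1.93 for rps- genes. Among the strongest 1914 peaks the shares were 13.9% ± 2.41 and 8.89% ± 6.94. By chromosome the share with a summit was 96.1% ± 3.40 on IV, 95.7% ± 4.35 on I, 90.9% ± 9.09 on II, 88.9% on III, the same in each replicate, and 76.2% ± 8.25 on V. The 2 genes of the X chromosome gave 33.3% ± 28.9, which is too few genes to compare. The 7 genes with a same-strand gene ending within 500 bp upstream gave 76.2% ± 8.25, against 91.5% ± 2.82 of the other 71, and their nearest summits lay at a median of -47.3 bp ± 118, against -260 bp ± 24.3. Of the 7 genes, 6, 5 and 5 had a summit in replicates 1, 2 and 3. None of these differences was tested. Matching shares of all protein-coding genes by chromosome, or behind a same-strand gene, are not given here. Whether the differences are particular to ribosomal protein genes is therefore not known.

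The summits of ribosomal protein genes lay farther upstream than those of the other genes as a whole. The median position of the nearest summit relative to the TSS was -256, -198 and -274 bp in replicates 1, 2 and 3 at ribosomal protein genes, against -92, -80 and -83.5 bp at other genes. The means of the medians were -243 bp ± 40.2 and -85.2 bp ± 6.17 (SD, n = 3), a difference in the same direction in 3 of 3 replicates (two-sided exact sign-flip p = 0.25, the smallest possible). In the pooled list the medians were -284 bp (quartiles -349 and -221) and -92 bp (quartiles -234 and 65). A nearest summit between 450 and 150 bp upstream was found at 68.3% ± 7.62 of ribosomal protein genes with a summit and at 36.0% ± 0.435 of the others. Within 100 bp of the TSS on either side the shares were 14.2% ± 4.16 and 28.8% ± 0.753. Summits lay upstream of the TSS at 83.9% ± 2.69 of ribosomal protein genes and at 63.9% ± 0.756 of the others. Single gene lists came closer, and the median position averaged -201 bp ± 6.56 at initiation factor genes, within the spread of the ribosomal protein genes, -153 bp ± 30.6 at proteasome genes and -98.5 bp ± 28.3 at mitochondrial ribosomal protein genes.

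**Figure D4:**
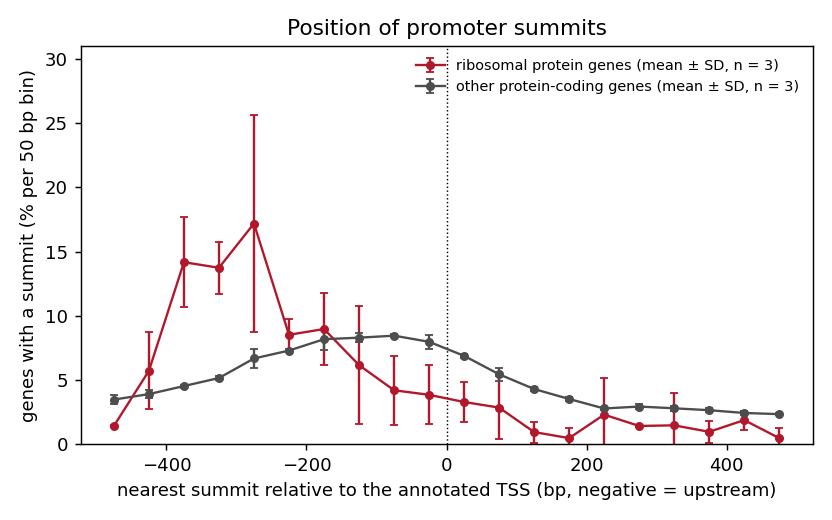
Position of the nearest summit relative to the annotated TSS on the strand of the gene (x axis, bp, negative is upstream) and the share of genes with a summit in each 50 bp bin (y axis, %), for ribosomal protein genes (red) and other genes (grey). Points are means and bars SDs of 3 replicates; ribosomal protein genes are highest between 400 and 250 bp upstream, and other genes around the TSS.

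The upstream position was also measured by the strongest summit and at other limits. By the strongest summit within 500 bp, the medians averaged -298 bp ± 10.3 at ribosomal protein genes and -127 bp ± 4.25 at other genes. At a limit of 250 bp the share with a summit in the replicates was 37.6% ± 10.7 for ribosomal protein genes and 20.3% ± 1.71 for the others, and the difference in median percentile rank was 12.9 points in place of 25.0. At a limit of 1000 bp the shares were 95.3% ± 1.48 and 43.6% ± 2.25. Positions also repeated between replicates to a degree. The 3 nearest summits of a gene spanned a median of 160.5 bp at the 64 ribosomal protein genes and 242 bp at 3318 other genes with a summit in every replicate, and the 3 strongest spanned 79 bp and 203 bp. In *C. elegans* many promoters are shared by diverging genes, and at 26 of the 73 pooled ribosomal protein summits the TSS of another protein-coding gene was nearer, as at rps-18, where the TSS of sec-61.A was 17 bp away, and at rps-26, where that of tmem-107 was 30 bp away. A single summit served rps-10 and rpl-24, at rank 2127 of the pooled list, and another served rps-14 and rpl-36, at rank 2474. When each summit was counted only for its nearest TSS, 61.5% of ribosomal protein genes had one in the pooled list and 70.5% in the replicates on average. The matching shares of other genes are not given here, nor is their share of summits nearer to another TSS. Whether ribosomal protein genes differ in this respect is therefore not known. The difference in median percentile rank from other genes was 26.0 points under this count.

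The ribosomal proteins that carry other symbols were read separately. They were 7 genes, the P-stalk genes rplp-0, rplp-1, rplp-2.1 and rplp-2.2 (rla-0, rla-1, C37A2.7 and rla-2 in Ensembl), rpsa-1 (uS2), and the fusion genes ubq-2 and fau-1. Their share with a summit in the replicates was 85.7% ± 14.3 and their median percentile rank 85.5 ± 0.834 (SD, n = 3). The stalk gene rplp-1 ranked at 88.2, 88.1 and 88.1 in replicates 1, 2 and 3. Another stalk gene, rplp-0, had weak summits in replicates 1 and 3 only, at 19.5 and 64.0, and none in the pooled list. None of the 7 genes reached the strongest 1914 peaks in any replicate.

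Other gene lists show how far the pattern extends beyond the ribosome. These are lists by symbol, and no test was made between them. All 7 genes listed as elongation factors had a summit in every replicate, with a median percentile rank of 87.6 ± 3.33 (SD, n = 3). They were taken by symbols starting with eef- or eftu-, and the function of each gene was not checked. The share was 87.9% ± 3.03 for 33 proteasome genes, 85.9% ± 2.22 for 26 genes of the mitochondrial respiratory chain and 78.8% ± 5.25 for 33 initiation factor genes, with median percentile ranks of 74.5 ± 4.59, 78.3 ± 8.35 and 70.7 ± 9.06. The 71 mitochondrial ribosomal protein genes, whose products make the separate ribosome of the organelle, had a summit at 76.5% ± 2.15 and a median percentile rank of 62.4 ± 5.48, and 0 of them were among the strongest 1914 peaks of a replicate. Other lists did reach that depth. The mean share there was 14.3% ± 14.3 for elongation factor genes and 7.69% in each replicate for respiratory chain genes. It was 4.04% ± 4.63 for initiation factor genes, 4.04% ± 1.75 for aminoacyl-tRNA synthetase genes and 3.03% ± 5.25 for proteasome genes. Ribosomal protein genes were at 12.0% ± 1.96 and all protein-coding genes at 1.60% ± 0.165. For 33 aminoacyl-tRNA synthetase genes, which charge tRNAs, the values were 68.7% ± 6.31 and 67.6 ± 8.82. Histone genes (72) were at 19.9% ± 2.89, collagen genes (156) at 15.6% ± 2.59 and the 6 vitellogenin (yolk protein) genes at 16.7% ± 16.7, below the 32.3% ± 2.07 of all protein-coding genes. The 4 genes listed as Pol III subunits gave 58.3% ± 28.9, with a wide spread between replicates. They were taken by symbols starting with rpc-, so any subunit gene under another symbol was left out.

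**Figure D5:**
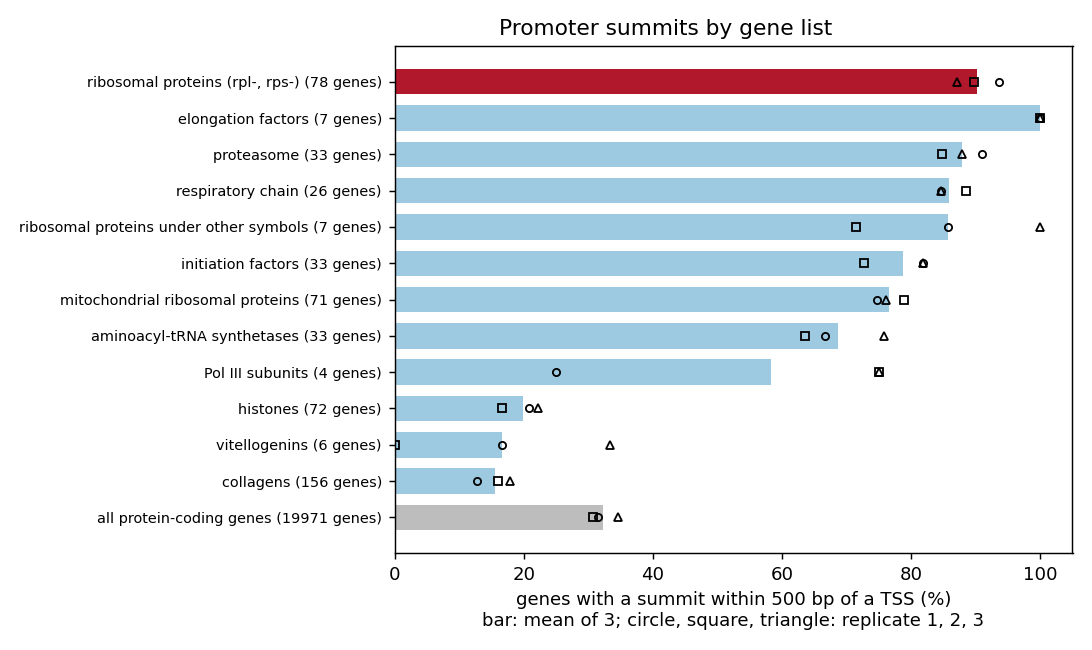
Share of genes with a summit within 500 bp of a TSS in the whole replicate lists (x axis, %), by gene list, with ribosomal protein genes in red and all protein-coding genes in grey at the bottom. Bars are means of 3 replicates and symbols the replicates; ribosomal protein genes are at 90.2%, elongation factors at 100%, and collagens at 15.6%.

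Sequence features that the choice of genes did not use were counted around the pooled summits. The 73 genes have 71 distinct summits, and 150 bp either side of each were compared with the same windows at 6138 summits of other protein-coding promoters. Of all words of 8 letters found in at least 20% of the ribosomal protein windows on either strand, 6 were over 5 times as frequent there as in the other windows. GGCCTAAA was found in 20 of 71 ribosomal protein windows (28.2%), against 1.03% of the others, and TGGCCTAA, which overlaps it by all but its first letter, in 17 (23.9%), against 0.749%. The word GCCTAAAA, which also overlaps GGCCTAAA, was in 22.5% against 2.05%, and ATTTTAGG, which shares CCTAAA with these words on the other strand, in 25.4% against 2.82%. A separate word, GCGAGACC, was in 18 windows (25.4%), against 3.50%, and CGAGACCC, which overlaps it, in 21.1% against 3.73%. Among words of 6 letters in at least 40% of the windows, CCTAAA was in 39 of 71 (54.9%), against 12.4%, and ACCGTA in 30 (42.3%), against 11.8%. All of these were picked by counting in the same windows, so the shares are a description with no test.

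The printed windows hold several of these words. The TGGCCTAA and GGCCTAAA words stand overlapped near the 3′ end of the windows of rpl-3, rpl-15 and rps-28, and ACCGTA, or TACGGT on the other strand, stands in those of rpl-3, rpl-15, rpl-18A, rpl-22 and rps-3A. The window of rpl-35 holds none of them. In the 500 bp before the annotated gene start, GGCCTAAA was found at 23 of 78 ribosomal protein genes (29.5%), against 1.67% of all protein-coding genes, and CCTAAA at 51 (65.4%), against 21.5%. On the strand of the gene, GGCCTAAA began at a median of -255 bp from the gene start in 17 genes, and the pooled summit lay at a median of 69.5 bp upstream of it, with a median distance in either direction of 87.5 bp. On that strand ACCGTA began at a median of -289 bp in 26 genes. The pooled summit lay on either side of it, at a median distance of 45 bp (quartiles 16.5 and 160.5 bp). By the strongest summit of the pooled list, the median percentile rank was 91.2 for 23 genes with GGCCTAAA and 91.0 for 50 genes without it. In replicates 1, 2 and 3 the values were 86.8, 84.9 and 90.5 with the word and 88.8, 87.4 and 89.4 without it, so neither set was higher throughout.

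Common promoter and Pol III motifs were counted in the same windows and in promoters. The core of the B box, the internal promoter element of tRNA genes, was found in 0 of 71 ribosomal protein summit windows, against 2.79% of all promoter summit windows, in 0% of the promoters, against 0.416%, and in the 500 bp before the gene start of 0 of 78 ribosomal protein genes, against 1.07% of all genes. The TATAAA word was in 35.2% of the ribosomal protein summit windows, against 33.9% of all, in 28.2% against 37.9% of the promoters between 250 bp before and 50 bp after the gene start, and in 53.8% against 54.1% of the 500 bp stretches. A run of 6 T, the kind of stretch at which Pol III stops, was in 93.0% against 82.7% of the summit windows, in 92.3% against 80.2% of the promoters and in 100% against 93.2% of the 500 bp stretches. The word TTTCAG, found at splice acceptor sites in *C. elegans*, was in 52.1% against 51.4% of the summit windows, but in 69.2% against 52.2% of the promoters and in 84.6% against 65.8% of the 500 bp stretches. The word CTGCGTCT was in 5.63% against 4.48% of the summit windows, 0% against 3.53% of the promoters and 6.41% against 5.32% of the 500 bp stretches. Each was searched on both strands. The median GC content was 36.5% in the ribosomal protein summit windows and 34.6% in the others. In the 500 bp before the gene start it was 33.5% at ribosomal protein genes and 33.6% at the others.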

How the data were processed

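Peak lists of 3 biological replicates, of the pooled replicates and of the reproducible set on build ce11 were used as deposited. The signal of each peak was deposited by the authors and was used to rank peaks within a list. The −log10 q value deposited beside it was not used. Per the deposited file lists, the longer lists served as input to the reproducibility step, and a control alignment, which was not used here, lay behind the calls. Which aligner and peak caller were run is not given in the sources used here. Lists on ce10 were not used.

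Summits were counted from 1 and matched to annotated mRNA starts of WBcel235 (RefSeq), the same sequence as ce11, with Python 3.11.15, numpy 2.4.6 and pandas 2.3.3. The nearest summit within 500 bp was taken. Shares have exact (Clopper-Pearson) 95% intervals, which cover the counting of genes only, and replicate values are mean ± SD of 3 lists, compared by two-sided exact sign-flip tests. The nearest-summit step was tested on simulated positions. Genes named are those with a reproducible summit, the 10 highest and 3 lowest by mean percentile rank among genes with a summit in all replicates, those with no summit in any replicate, and the stalk genes; others were picked after their values were seen. The members and lists were chosen with earlier results of these data known. The alternatives were the distance limit, the choice of TSS and of summit, the length of the list, leaving out genes near small RNA genes or behind a same-strand gene, and leaving out each replicate.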

Additional observations from a re-analysis of the deposited data

How the results depend on the processing

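No paired analysis was possible because all samples form 1 group, with no sample of another group to pair. The differences between ribosomal protein and other genes were taken within each replicate. In the reproducible list that difference changed sign, with 0% of ribosomal protein genes against 0.498% of the others at a limit of 250 bp and 0% against 0.784% in the strongest 1000 peaks. A count of 0 among 78 genes allows a share of up to 4.62% (exact 95% upper bound), which is above both shares of the others. The change of sign therefore does not show that ribosomal protein genes were lower. With a limit of 250 bp the share of ribosomal protein genes with a summit was 0% in the reproducible list, 32.1% in the pooled list, 37.6% in the replicates and 2.14% among their strongest 1914 peaks, and the difference in median percentile rank was 12.9. At 1000 bp the replicate share was 95.3% and the difference 29.5. With each summit counted only for its nearest TSS, the shares were 61.5% (pooled), 70.5% (replicates) and 8.55% (their strongest 1914 peaks). Shares of other genes are not given for this count, nor for the strongest 1914 peaks at 250 bp. The strongest 957 reproducible peaks gave 0%, and the strongest 1914 pooled peaks gave 15.4%. By the strongest summit the rank difference was 21.8. Leaving out each replicate in turn gave shares of 88.5 to 91.7% and, among the strongest 1914 peaks, 10.9 to 12.8%, and a rank difference of 23.3 to 26.2. A 250 bp limit leaves out most of the upstream range in which these summits lie. Read numbers are not part of the lists, so a missing summit may lie below the end of a list.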
